A study of Drosophila melanogaster with 2 samples.

Results

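Of the 6635 peaks in the reproducible set of a Broad ChIP-seq experiment in fly larvae, 300 (4.52%, exact Clopper-Pearson 95% interval 4.03 to 5.05) had their summit at the start of a non-coding RNA gene. A peak was counted when its summit lay within 1000 bp of an annotated start of a gene of the biotype ncRNA (Ensembl release 115) and over 500 bp from every protein-coding start. The peaks lay nearest to 252 ncRNA genes, of which 211 had 1 peak, 35 had 2, 5 had 3 and 1 had 4. A further 230 peaks at ncRNA starts were left out because a protein-coding start lay within 500 bp.

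The study precipitated chromatin from whole wandering larvae of the last instar, males and females pooled, with an antibody against GFP; the antibody field of the labels names br. Every animal came from the transgenic line br-rj-GFP, in which the br-RJ isoform of Broad carries GFP at its C-terminus. There were 2 biological replicates of this 1 group and no other genotype, stage or treatment, which leaves no conditions to compare. The animals were whole, so cell types cannot be told apart, and a site used in few cells cannot be told apart from a site used weakly in many. Chromatin was sonicated to 200 to 800 bp, per the labels, which is as wide as the distances from summit to start described here. The promoter that drives the fusion is not given in the sources used here.

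Broad is a family of BTB zinc-finger transcription factors that the steroid hormone ecdysone induces early at the end of larval life, and it is required for metamorphosis. Long non-coding RNAs (lncRNA) are transcribed much like messenger RNAs but code for no known protein, and antisense RNAs (asRNA) are annotated across a gene on the other strand. Some of them are primary transcripts from which microRNAs, the short RNAs that silence messenger RNAs, are cut as hairpins.

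The sequences around 8 summits are shown because the first 5 belong to the strongest peaks and the last 3 to a lncRNA gene beside a microRNA host, to a microRNA host and to a studied RNA of the X chromosome. Each is the 101 bases centred on the summit, on the + strand, read from the RefSeq genome of Release 6 (dm6). Capitals mark any of the fixed sequences searched in all peaks, and also AATAAA or its reverse complement, which was chosen after values were seen.
CR31044 at chr3R:29214391-29214491: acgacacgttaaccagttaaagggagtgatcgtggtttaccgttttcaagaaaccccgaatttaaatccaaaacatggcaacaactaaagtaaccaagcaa
CR46035 at chr3R:17704345-17704445: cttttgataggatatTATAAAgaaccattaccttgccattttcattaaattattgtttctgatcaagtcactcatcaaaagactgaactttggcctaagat
CR44619 at chrX:12752327-12752427: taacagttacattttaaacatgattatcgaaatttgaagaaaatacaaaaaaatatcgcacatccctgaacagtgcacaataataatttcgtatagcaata
CR44619 at chrX:12751375-12751475: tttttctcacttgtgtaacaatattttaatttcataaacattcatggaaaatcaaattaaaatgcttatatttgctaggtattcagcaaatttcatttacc
CR44512 at chrX:19668545-19668645: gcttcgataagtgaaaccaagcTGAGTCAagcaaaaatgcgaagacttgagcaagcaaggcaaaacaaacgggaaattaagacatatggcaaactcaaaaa
CR44676 at chr3L:19560755-19560855: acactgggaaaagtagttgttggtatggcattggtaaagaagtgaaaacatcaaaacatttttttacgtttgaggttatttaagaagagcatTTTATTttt
CR43857 at chr2L:7423610-7423710: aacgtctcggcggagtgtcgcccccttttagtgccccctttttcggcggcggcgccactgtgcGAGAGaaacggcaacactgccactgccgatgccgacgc
roX1 at chrX:3862462-3862562: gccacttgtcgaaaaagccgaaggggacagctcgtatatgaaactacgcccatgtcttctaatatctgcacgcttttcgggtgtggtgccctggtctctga
The G and C content of the 5 strongest windows ran from 23.8% to 39.6%, on both sides of the median of the 300 peaks (35.6%). The CR46035 window holds TATAAA, the letters of a TATA box, and the asRNA:CR44512 window holds TGAGTCA, the letters of an AP-1 site. The window at CR43857 has 65.3% G and C and holds GAGAG, and that at roX1 has 51.5%. A match describes letters and is no evidence of binding by any factor.

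Most of the peaks belonged to long RNAs. Of the 300, 252 lay nearest to 207 lncRNA genes and 29 to 27 asRNA genes. The remainder comprised 6 peaks at hairpins of microRNAs, 8 at unnamed entries of 18 to 29 bp that lie inside such hairpins, 2 at small non-coding RNA genes, and 1 each at the snoRNA host Uhg4, at sisRNA:4 and at RNaseMRP:RNA. The annotated start of a hairpin is the end of a cut product and not a start of transcription. RefSeq listed 245 of the 252 genes under the same symbol.

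A summit of the set lay within 1000 bp of a start in 502 of 3289 ncRNA genes, or 15.3%. The share was 24.3% of protein-coding genes and 22.1% of all genes. It was 16.5% of 1945 lncRNA genes, 20.7% of 503 asRNA genes and 9.23% of 260 microRNA hairpins. These counts include genes whose peak was also near a protein-coding start, and genes are not replicates, so no test was made.

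Beyond 500 bp from protein-coding starts, 3.56% of bases lay in the windows around ncRNA starts and held 7.63% of the 3933 peaks there (exact interval 6.82 to 8.50). That is 68.9 peaks per Mb inside the windows and 30.8 per Mb outside them. The difference was not tested, since neighbouring bases and peaks are not independent. Every base of the 7 arms was counted, whether or not reads can be placed there.

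The peaks were found on each long arm and on X, with 63 on 2L, 59 on 2R, 72 on 3L, 65 on 3R and 41 on X. Per 100 annotated ncRNA genes the number ran from 7.84 on 2L to 11.0 on 3L, and X had 8.49. The 30 ncRNA genes of chromosome 4 and the 28 of Y held none.

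The level of a peak is the signal value of the authors' list called on the pooled replicates; its scale is not stated. It is used to rank and compare peaks within a list, and values or ratios across the lists of the replicates are given as a description, since those lists are not known to share a scale. The 300 peaks ranged from 80.6 to 2102 with a median of 136 and quartiles of 101 and 236. The whole set had a median of 137 (quartiles 102 and 223). Peaks within 500 bp of protein-coding starts had a median of 146 (n = 2702), and the other peaks away from such starts had 132 (n = 3633). Thus 148 of the 300 (49.3%, exact interval 43.5 to 55.1) lay above the median of the whole set.

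**Figure D1:**
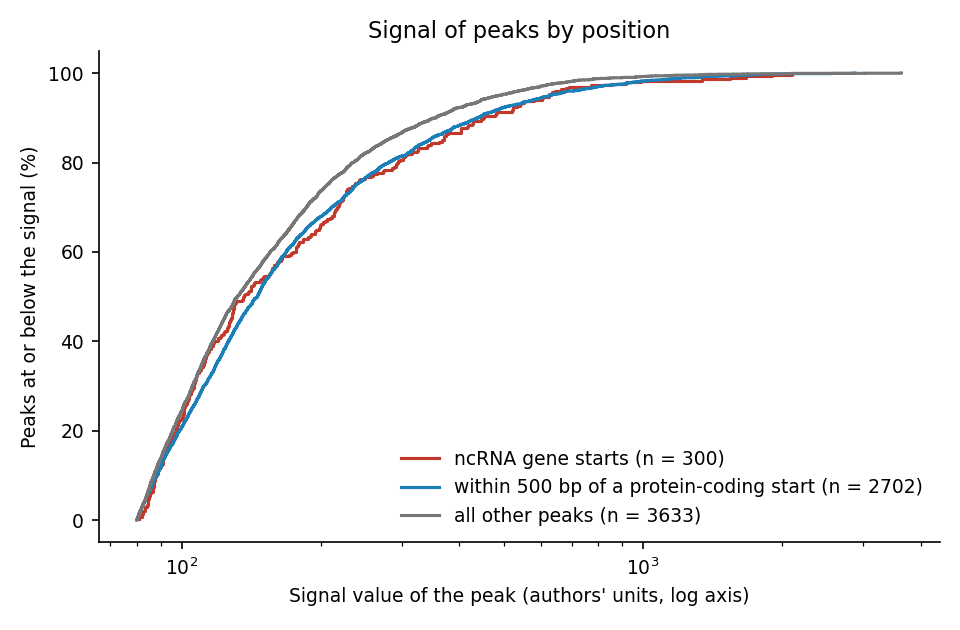
Distribution of the authors' pooled signal (x axis, log scale), as the percentage of peaks at or below each value, for the 300 peaks at ncRNA starts, for peaks within 500 bp of protein-coding starts and for all other peaks. The medians are 136, 146 and 132; the curve of the ncRNA starts runs with that of the other peaks at low signal and with that of the protein-coding starts at high signal.

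At the top of the range, 26 of the 300 (8.67%) reached a signal of 500, against 405 of the whole set (6.10%). They made up 6 of the 100 strongest peaks of the set and 54 of the 1000 strongest. The exact interval of the first share runs from 5.74% to 12.4% and contains the share of the set. It covers counting error only, the 26 are among the 405, and no test was made.

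The strongest peak lay 121 bp upstream of the start of CR31044, the primary transcript of mir-279 and mir-996, microRNAs known from the specification of carbon dioxide sensing neurons. CR31044 spans chr3R:29214562-29219667 on the + strand. Its peak had a pooled signal of 2102, with 1008 in replicate 1 and 1095 in replicate 2, and was the 8th of the set. The hairpins of mir-279 and mir-996 begin 1144 and 2743 bp downstream of the summit. The nearest protein-coding start, that of the translation elongation factor gene eEF1gamma, was 5731 bp away and had a separate peak of 493. A weaker peak of 129 lay 837 bp downstream of the summit and was assigned to the mir-279 hairpin.

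The peak next in signal lay within osa, the gene of a subunit of the Brahma chromatin remodelling complex, 700 bp downstream of the start of CR46035. CR46035 runs against the strand of osa, whose own start was 13955 bp away. The signal was 1904 in the pooled list, 887 in replicate 1 and 1013 in replicate 2. CR46035 held weaker peaks of 342 and 195 on the upstream side of its start. The peak of 195 was matched only in replicate 1, at 129.

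CR44619, on X, had 2 of the 5 strongest peaks, at either side of its start. The peak 510 bp downstream had a signal of 1673, with 841 and 843 in the replicates. The peak 442 bp upstream had 1341, with 622 and 720. CR44619 overlaps Vinr, another lncRNA gene on the same strand, and the peak of 1341 lies within Vinr. Further peaks, of 597, 495 and 243, followed downstream of the stronger one.

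**Figure D2:**
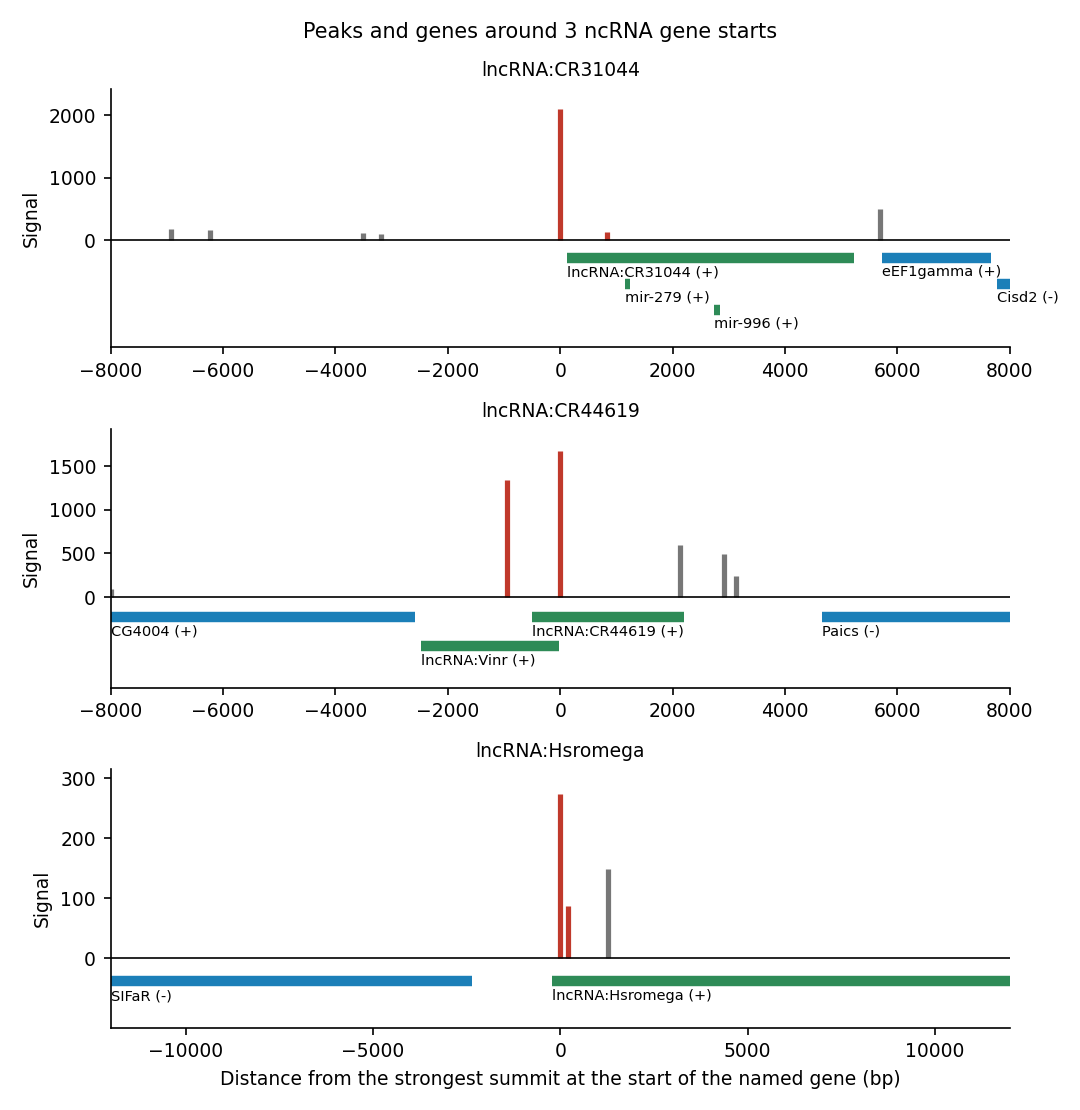
Peaks and genes around the strongest summits at CR31044 and CR44619 and around the Hsromega summit, by distance from that summit in bp; bar height is the pooled signal, on a separate axis for each locus. The CR31044 peak of 2102 stands alone over its start, whereas CR44619 has peaks of 243 to 1673 in and around it. Red bars are peaks at ncRNA starts, grey bars other peaks, green boxes ncRNA genes and blue boxes protein-coding genes.

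An antisense gene came next. Its peak lay 849 bp upstream of asRNA:CR44512, inside Zw, which encodes glucose-6-phosphate dehydrogenase, the entry enzyme of the pentose phosphate pathway. It had a signal of 1542, with 747 and 792 in the replicates. The start of Zw was 1127 bp away.

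Among the next members, CR46102, which lies inside the lipophorin receptor gene LpR2 on the other strand, had a peak of 991 (477 and 520 in the replicates). CR44676 had one of 919 (440 and 474). CR43626, the host of mir-282, had one of 854 (370 and 447), 390 bp upstream of its start and in an exon of the protein-coding gene CG43389. These 3 peaks thus lay in different settings, within an intron of a protein-coding gene, outside protein-coding genes and in an exon.

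The others among the 20 strongest ran from 772 at CR42794 down to 553 at CR46113. Their nearest protein-coding genes include tara, Act5C, which encodes a cytoplasmic actin, and puc, which encodes a phosphatase of the JNK pathway. The peak at CR45668 (646) was 644 bp from the Act5C start and 228 bp upstream of the RNA gene. CR44331 lies inside puc and on its other strand, and its peak (581) was 118 bp upstream of the RNA start and 7633 bp from the nearest start of puc. CR44478 lies inside Socs36E, which encodes an inhibitor of JAK/STAT signalling (607), and CR34052 inside the kinase gene Raf (624).

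All 20 were found in both replicates. Replicate 2 over replicate 1 ran from 0.737 to 1.21. Of these 20, 8 lay in the span of a protein-coding gene, 11 were over 5000 bp from the nearest protein-coding start and 5 were within 250 bp of the RNA start. The gene with that nearest protein-coding start had a peak within 1000 bp of a start of its own in 10 of 20 cases. For the 17 of them over 1000 bp from that start, where the counted peak itself could not supply the summit, it was 7.

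**Figure D3:**
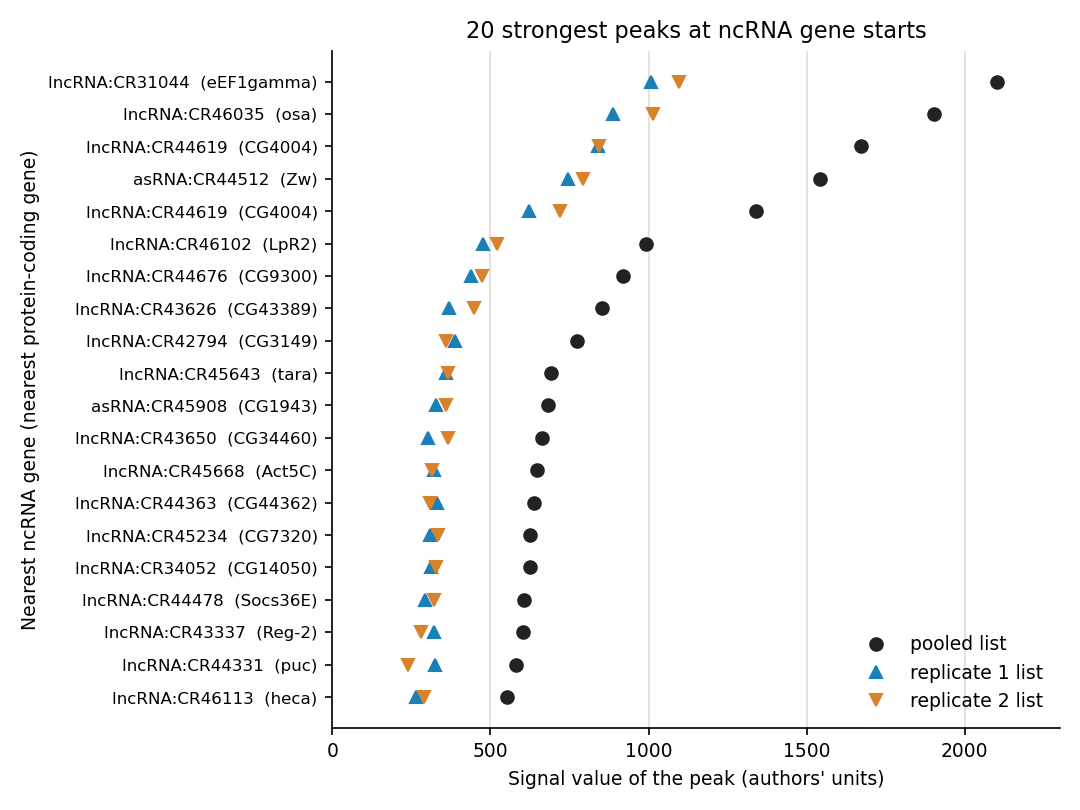
Signal of the 20 strongest peaks at ncRNA starts in the pooled list (circles) and in the separate lists of replicate 1 (upward triangles) and replicate 2 (downward triangles), in the authors' units, with the nearest RNA gene and, in brackets, the nearest protein-coding gene. Every peak is present in both replicates, and CR44331 has the lowest ratio of replicate 2 to replicate 1, with 325 and 240.

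Because CR31044 and CR43626 carry microRNAs, all ncRNA genes of 200 bp or more that hold a hairpin on their own strand were counted. This count was chosen after values were seen. There were 37 such microRNA hosts, and 12 had a summit within 1000 bp of a start (32.4%, exact interval 18.0 to 49.8), compared with 430 of all 2502 ncRNA genes of that length (17.2%). With the protein-coding exclusion, 11 of the 37 (29.7%) and 237 of the 2502 (9.47%) were nearest to a counted peak. The hosts are part of the 2502, and CR31044 and CR43626, which prompted the count, are among the 12 and the 11. The number of annotated starts per gene, each with its own window, was not matched. No test was made.

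CR43650, the host of mir-8, a microRNA known for its part in body growth through the fat body, had 3 peaks, of 663, 478 and 291. All 3 were upstream of an annotated start, though the peak of 478 lay within the span of the gene. The strongest had 303 and 364 in the replicates, the next 242 and 235, and the weakest 178 and 128.

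CR43857, the host of mir-275, had a peak of 324 (184 and 156) at 160 bp upstream, and a stronger one of 482 (216 and 272) was assigned to the hairpin of mir-275. CR43651, the host of mir-14, a microRNA known to act on the ecdysone receptor, had a peak of 303 (157 and 140) only 14 bp upstream of its start. CR46006, the host of mir-276a, had peaks of 188 and 117, and asRNA:CR46194, which holds mir-281-1 and mir-281-2, had 179 (83.8 and 105).

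CR45916, the host of mir-9a, which is known for securing sensory organ precursors, had peaks of 155 and 96.4. The weaker of these was 24 bp upstream of its start. CR44676 and CR45916 share CG9300 as the nearest protein-coding gene. CR43314, the host of mir-bft, had 126 (80.7 and 51.0). The weakest was at CR42651, the host of mir-10 beside the Hox gene Dfd, with 84.4. It was matched in replicate 1 (51.7), and no summit of replicate 2 lay within 100 bp. CR45345, the host of mir-375, had a summit (130) that lay nearer to an unnamed entry.

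Other hosts had no peak of the set at a start. They include let7C, whose microRNAs time the passage to the adult, CR43334, the host of the growth-promoting microRNA bantam, and iab4 and iab8 of the bithorax complex. For let7C, 3 peaks lay elsewhere along the gene or up to 1000 bp beyond it, with a highest signal of 284. Of the 10 ncRNA genes that hold snoRNAs, Uhg4 had a counted peak and Uhg2 had a peak that was left out.

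From a list of 31 studied RNAs, 5 had a counted peak, 1 had a peak left out, 21 had none at a start, 3 are not of the biotype ncRNA and 1 is not in the annotation. Of the 21, bft was scored at its hairpin, whereas its host CR43314 had the counted peak of 126. Of the 27 annotated with that biotype, 6 had a summit within 1000 bp of a start (22.2%, exact interval 8.62 to 42.3), and the interval contains the 15.3% of all ncRNA genes. The 27 are part of those genes, and no test was made. Uhg4, a host of snoRNAs, had the highest, 450 (200 and 243 in the replicates) at 60 bp upstream of its start. The start of the protein-coding gene Boot was 555 bp away, and a start of another short RNA gene or a pseudogene lies within 500 bp of the summit.

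Hsromega, the heat-shock RNA that organises nuclear omega speckles and also counted among the hosts (mir-4951), had peaks of 274 (122 and 162) and 87.7 (64.5 and 38.5), 229 bp downstream and 64 bp upstream of an annotated start. The weaker of these thus had the higher value in replicate 1 and the stronger one in replicate 2. Both summits lie within the span of the gene. The RNA gene flam, a piRNA source that restrains gypsy retrotransposons, had 135.5 (70.8 and 63.7) at 153 bp upstream of its start. An annotated transposable element held 0 of the 300 summits and 10 of the 6635 of the whole set (0.151%), which is under 1 peak in 300.

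RNaseMRP:RNA, the RNA of an RNA-processing enzyme, had 91.1 (31.7 and 54.9) and lies inside CG10365. The RNA gene roX1, whose transcript helps to raise transcription of the male X chromosome, had 88.8 (44.2 and 34.7). Its summit was 87 bp upstream of 1 of 3 annotated starts and within the span of the gene. The signals of both RNAs are near the lower end of the set. For roX2, a partner of roX1 in that complex, the strongest entry of the full pooled list near the start had 41.9, under the lowest signal of the set, and a peak of 111 lay farther along the gene or up to 1000 bp beyond it.

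Summits were unevenly placed around the ncRNA starts. In the 200 bp upstream of a start lay 59 summits (19.7%), where 10.7% of the bases of the windows lie. In the 200 bp downstream lay 26 (8.67%), where 10.9% of the bases lie. As densities these are 126 and 54.6 peaks per Mb. From 200 to 1000 bp the densities were 61.7 upstream and 64.3 downstream. A single stretch from 500 to 600 bp downstream held 27 summits, 121 per Mb, so the upstream side of the start was not alone in its density. The bounds of these stretches were chosen after values were seen.

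**Figure D4:**
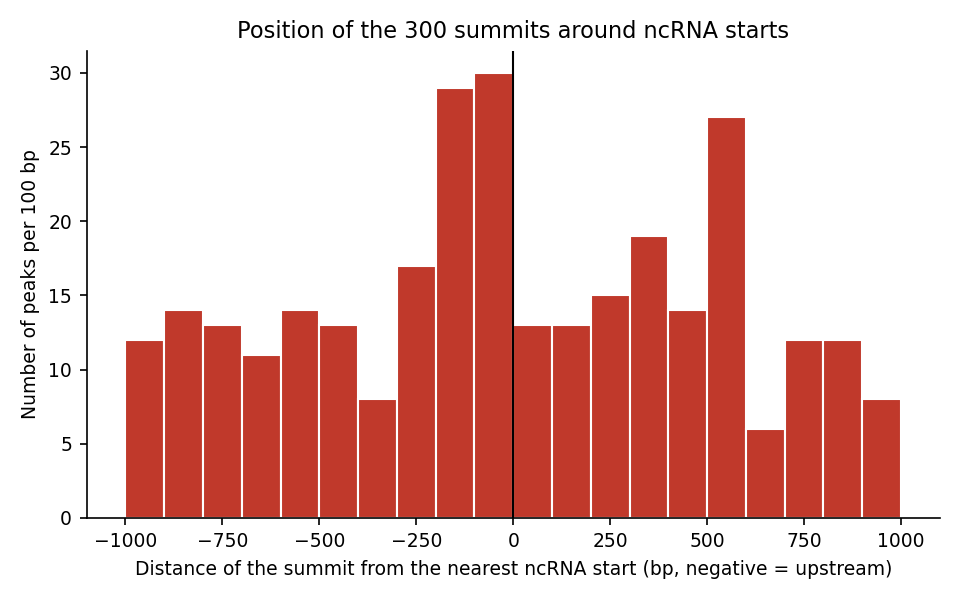
Number of summits at ncRNA starts by distance from the nearest start, in bins of 100 bp along the direction of transcription, with the start at 0 and negative distances upstream. The highest bars are the pair just upstream of the start, with 59 summits together, and the bar from 500 to 600 bp downstream, with 27.

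Over both sides, 103 summits (34.3%) lay within 250 bp of the start, 68 between 251 and 500 bp, 76 between 501 and 750 bp and 53 between 751 and 1000 bp. The median distance was 418 bp. Upstream summits numbered 161 (53.7%, exact interval 47.8 to 59.4), where 48.7% of the bases of the windows lie upstream. Their median signal was 155, and that of the 139 at or downstream of the start was 128. Upstream is counted from the nearest annotated start, so an upstream summit can lie within a gene that has an earlier start. Signal did not fall with distance: the median was 127 within 250 bp and 155 beyond 750 bp.

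The rule sets a distance on each side. The 3 peaks just inside 1000 bp of an ncRNA start were at 973, 979 and 989 bp, with signals of 176, 625 and 293. The 3 just outside were at 1002, 1007 and 1008 bp, with 190, 220 and 114. At the protein-coding bound, the 3 just kept were at 503, 508 and 509 bp (113, 112 and 297) and the 3 just left out at 482, 491 and 492 bp (83.7, 84.0 and 130). The weakest counted peaks were 82.0 at CR46090, 80.7 at CR44936 and 80.6 at CR44620.

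The nearest protein-coding start lay at a median of 2653 bp (quartiles 1208 and 6004.5), against 3438 bp for the other peaks away from protein-coding starts. There were 228 such nearest genes. The farthest, Or67d, an odorant receptor gene, was 58792 bp from a summit at CR46006. For 58 peaks (19.3%) a protein-coding start lay between 501 and 1000 bp away, against 15.9% of the other peaks. A further 50 (16.7%) were over 10000 bp from any, against 19.6% of the other peaks.

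Summits lay in the span of a protein-coding gene in 115 of 300 cases (38.3%, exact interval 32.8 to 44.1). This compares with 72.6% of the other peaks away from protein-coding starts and with 42.6% of the bases in the windows. Peaks inside and outside such spans numbered 62.0 and 74.0 per Mb, whereas for the other peaks the figures were 34.0 and 24.7. An exon held 9 of the 115. Where a single protein-coding gene held the summit, the RNA gene was on its strand in 32 of 106 cases (30.2%). These cases include asRNA genes, a class annotated by its place on the other strand of a gene. The same share over all ncRNA genes within protein-coding genes was not counted, so no preference can be read from it. The median signal was 156 for summits inside protein-coding spans and 129 for those outside.

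In 54 cases (18%) the summit was upstream of the starts of an RNA gene and a protein-coding gene that point away from each other. The median signal of these was 171. No limit was set on the distance to the protein-coding start, which was 18602 bp (kek1) for a peak at CR44971. These are thus not all shared promoters, and the share among other peaks was not counted. The nearest protein-coding gene had a summit within 1000 bp of a start of its own in 174 of 300 cases. Among peaks over 1000 bp from that gene, so that the counted peak itself could not supply the summit, it was 116 of 242 (47.9%, exact interval 41.5 to 54.4). For the other peaks it was 53.4% of 3057.

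The fixed list of 32 genes was drawn up for the ecdysone response but also holds other genes, such as Met, gce, Kr-h1 and Hnf4. Of the listed genes, 3 were nearest to 5 of the 300 peaks (1.67%), against 105 of the 3633 other peaks (2.89%). The gene vri, which encodes a bZIP transcription factor, had 3 of them, at CR44742 (294, with 163 and 139 in the replicates), CR45730 (143) and CR44743 (112). Eip75B, which encodes a nuclear receptor induced by ecdysone, was nearest to CR45393 (127), and the kinase gene Eip63E to CR45820 (86.9). Counting genes that merely span the summit adds CR46322 (371), which lies within the nuclear receptor gene Hr3, and 2 peaks of CR45922 (179 and 157) within Eip75B.

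Several RNA genes gathered peaks. CR45243, nearest to fng, a glycosyltransferase gene of the Notch pathway, had 4 within 1444 bp, with signals of 481, 242, 135 and 107. The strongest had 273 and 219 in the replicates and the next 83.3 and 163. Besides CR43650 and CR46035, 3 peaks each lay at asRNA:CR45868 (200, 126 and 102) in bip1, CR44218 (141, 141 and 99.8) in kis, which encodes a chromatin remodeller, and CR44366 (227, 216 and 105) near CG42808. At 19 pairs of counted peaks the summits lay within 500 bp of each other, under the length of the longest fragments, so those peaks may share fragments.

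The replicates were set side by side through the summits of their separate lists. A summit lay within 100 bp in both lists for 274 of the 300 (91.3%), against 93.2% of the whole set. A further 16 were matched in replicate 1 only, 9 in replicate 2 only and 1 in neither. That 1 peak (112), near CG43389, had summits of 67.8 and 53.2 at 143 and 135 bp. The set passed the authors' reproducibility step, so such matches arise in part by construction.

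Among the 274, the median signal was 73.4 in replicate 1 and 72.1 in replicate 2. The log2 ratio of replicate 2 to replicate 1 had a median of 0.01 and an SD of 0.53 across peaks, and 94.5% were within 2-fold. Across these peaks, which share both libraries, Spearman's rho was 0.795. Of the 5 largest differences, replicate 1 was the higher at CR45437 (58.5 and 11.1), CR45424 (95.2 and 25.8) and CR44977 (91.6 and 28.2), and replicate 2 at CR46352 (19.6 and 65.5) and CR44620 (14.8 and 47.5). Their pooled signals were 91.7, 204, 163, 85.6 and 80.6 in that order, so the peaks at CR45424 and CR44977 were above the median. These differences depend on which summit is matched. Within 200 bp the strongest summit of replicate 2 had 43.2 at CR45437, 86.0 at CR44977 and 174 at CR45424. The last is the summit already matched to the neighbouring CR45424 peak of 325, so it does not give the level of the peak of 204. The strongest summit of replicate 1 within 200 bp had 28.9 at CR44620, and CR46352 did not change. By strength, 99 of the 100 strongest were matched in both, 91 of the middle 100 and 84 of the weakest 100.

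**Figure D5:**
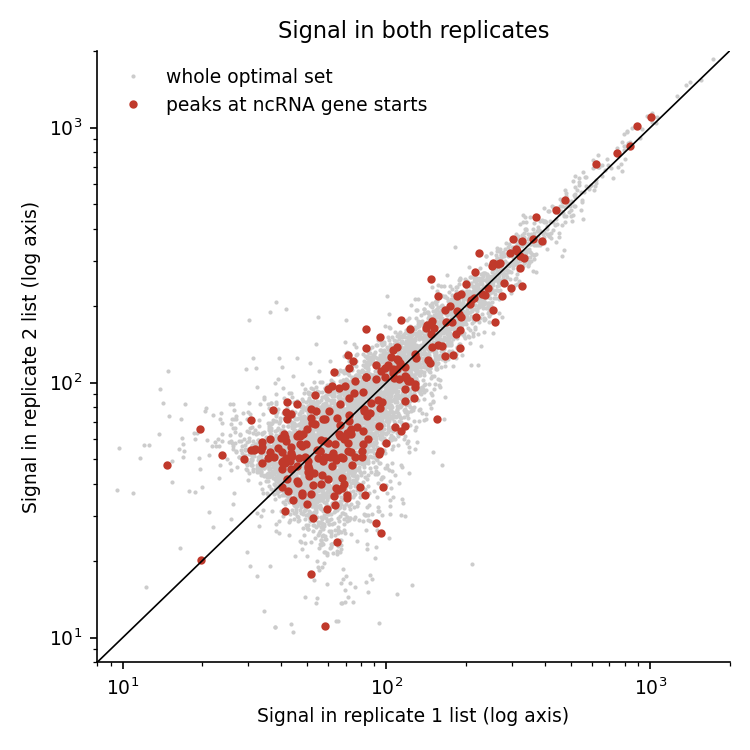
Signal of each peak at an ncRNA start in replicate 1 (x axis) and replicate 2 (y axis), from the authors' separate lists, on log axes, for the 274 peaks matched in both (red) over the whole set (grey); the line marks equal values. The 20 strongest peaks lie close to the line, with ratios of replicate 2 to replicate 1 between 0.737 and 1.21, and the 5 points farthest from it have a value under 30 in one of the replicates.

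In the 101 bases around the summit, the 300 peaks had a median G and C content of 35.6%, against 36.6% in the whole set and 39.6% at protein-coding starts. It was 33.7% in the strongest 100 and 39.6% in the weakest 100. The fixed sequences were searched on both strands. GAGAG, the letters bound by GAGA factor, were in 11.7% of the windows and 13.1% of those of the whole set, and TATAAA in 16.7% of each. ATCGATA, the DNA replication-related element of many housekeeping promoters, was in 1% of the windows, in 3.23% of the set and in 6.29% at protein-coding starts.

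The remaining sequences were rare in both. GGTCACA was in 0.667% of the windows (set 1.28%), AGGTCA in 1% (1.87%), TGAGTCA in 1% (0.965%), CACGTG in 1% (0.829%) and CAGGTA in 2.67% (1.76%). GTAAACA and TAGTAAA, which resemble adenine-rich sequences of older work on Broad, were in 2.33% (3.15%) and 2.67% (2.17%). CACACA was in 8.67% (8.23%). AATAAA, chosen after values were seen, was in 34 of the strongest 100 windows, 30 of the middle 100 and 17 of the weakest 100, and in 25.5% of the whole set; G and C content moved with it, and its part was not tested.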

How the data were processed

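The authors deposited, for each replicate and for the pooled replicates, a list of 30000 peaks that served for their reproducibility filter (IDR), and an optimal set of 6635 peaks, on dm6. The signal value in the authors' lists has no stated scale, and how reads were aligned and peaks called is not stated in the labels or the lists. The lists hold no reads, so depth is unknown and intervals cover counting error only. The optimal set was the 6635 strongest peaks of the pooled list. Lists on dm3 were not used.

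Starts came from Ensembl release 115 (BDGP6.54); 99.8% of start codons read ATG on the RefSeq genome. Summits within 100 bp were matched between lists. Python 3.11.15, pandas 2.3.3 and scipy 1.17.1 were used, and the counting steps were tested on simulated data. Named were the 20 strongest peaks, listed RNAs, genes with 3 or more peaks, peaks at the thresholds, those that differed most between replicates, and genes of the ecdysone list. Hosts of microRNAs were added after values were seen. Members and lists were chosen with earlier results of these data known. No test was run over peaks or genes, which are not replicates.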

Additional observations from a re-analysis of the deposited data

How the results depend on the processing

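Under the alternatives, 46 of 74 values stayed within a bound set for their kind and 28 moved beyond it. For shares the bound was the exact interval of the reported value. For the ratio of median signals it was the SD of that ratio across the separate replicates (0.00719). For counts of peaks and genes it was a fixed fold change, which is no measured spread. The tally thus does not show how many values stayed within measured variability. A window of 500 bp gave 171 peaks and 163 genes, a ratio of the median signal to that of the whole set of 0.942 (0.990 as reported) and 9.61% of ncRNA genes with a summit. A window of 2000 bp gave 494 peaks and 23.7% of ncRNA genes. Excluding peaks within 250 bp of protein-coding starts gave a ratio of 1.03, and excluding within 1000 bp put 32.6% in protein-coding spans. Only peaks above the median signal of the set left 148 peaks, 130 genes, 44.6% in spans and 8.33% of ncRNA genes. The ratio there was 1.07, taken to the median of those stronger peaks and not to that of the whole set. Using only the 6635 strongest peaks of 1 replicate's list, the size of the optimal set, gave 290 to 313 peaks and 235 to 257 genes. It also gave a ratio of 0.964 to 1.01, 39.0% to 39.6% in spans and 14.9% to 15.1% of ncRNA genes. That ratio was taken to the median of the same strongest peaks of the replicate. The ratio lies near 1 and on both sides of it, so no order of the medians can be read from it. Leaving out entries under 200 bp, an alternative chosen after seeing the data, gave a ratio of 1.01. Leaving out peaks near other short RNA genes, chosen likewise, moved no value beyond its bound. The share matched in both replicates was 71.7% within 50 bp, 98% within 200 bp and 68.3% in the strongest peaks of each list. Windows of 25 and 100 bp to either side held GAGAG in 6% and 23.3%, TATAAA in 8.67% and 29.3% and CACACA in 3.67% and 19%; CAGGTA was in 5.67% at 100 bp, and GTAAACA and TAGTAAA in 0.667% and 0.333% at 25 bp. These shares follow the number of bases searched. No paired analysis was possible because there is only 1 group.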
